A study of Bos taurus with 12 samples.

Results

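The m6A readers are proteins that bind RNA carrying N6-methyladenosine (m6A), and the measurements described here are of the readers' own transcripts: their level and the m6A peaks that they carried. The 10 members were chosen by name as YTHDF1, YTHDF2, YTHDF3, YTHDC1, YTHDC2, IGF2BP1, IGF2BP2, IGF2BP3, HNRNPA2B1 and HNRNPC. All 10 were present among the 18436 genes of the expression table, and together they held 15 of 19739 m6A peaks in GM and 14 of 20790 in DM. GM denotes primary bovine (Bos taurus) skeletal myoblasts kept in growth medium with 20% fetal bovine serum, and DM denotes myotubes formed from them over 4 days in differentiation medium with 2% horse serum. Confluence was recorded as 80% for GM and 100% for DM. Days, medium, serum and confluence all differ between the groups and cannot be told apart. Both came from longissimus dorsi muscle of newborn Qinchuan cattle. The methods describe cells isolated from a single newborn animal, so the spread between the 3 cultures of a group is spread between cultures and not between animals. From every culture 2 libraries were made, the untreated input and the fraction immunoprecipitated (IP) with an m6A antibody, which gives 12 libraries. Expression was read from the 6 input libraries as FPKM (fragments scaled by transcript length and by library size), whereas m6A was read from 1 peak list per group. Each list is taken to pool the libraries of its group.

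m6A is added to mRNA by a writer complex built around METTL3 and METTL14 and removed by the erasers FTO and ALKBH5. The readers decode it. YTH domain proteins hold the methylated base in a pocket: the cytoplasmic YTHDF proteins are tied to translation and decay of the bound mRNA, YTHDC1 acts in the nucleus on splicing and export, and YTHDC2 is a helicase best known from germ cells. The IGF2BP proteins stabilise bound mRNA and are typical of fetal and proliferating cells, including myoblasts, and HNRNPA2B1 and HNRNPC are abundant nuclear proteins that package and splice pre-mRNA, HNRNPC through sites that m6A helps to open.

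The markers of the culture moved between the groups, as shown by limma on log2(FPKM + 1) with Benjamini-Hochberg adjustment. For comparison with the marker counts, 26.7% of the 12302 tested genes were lower in DM and 16.1% higher (limma adjusted p under 0.05). Of 5 myoblast markers 4 fell in DM, of 7 myotube markers 4 rose and 1 (ACTA1) fell, and all 4 proliferation markers fell, with summed levels of 63.5 to 72.2 FPKM in GM and 4.37 to 6.51 FPKM in DM. The GM cultures already carried the myotube markers MYOG (197 ± 8.95 FPKM, SD, n = 3) and MYH3 (273 ± 2.74 FPKM, SD, n = 3). Of 6 fibroblast markers 2 rose, 1 fell and 3 did not pass, and their summed level was 7845 to 8078 FPKM in GM and 8638 to 8895 FPKM in DM. Most of that sum was COL1A1, with 6791 ± 182 FPKM in GM and 7420 ± 146 FPKM in DM (SD, n = 3), which did not pass (limma adjusted p 0.123). The 2 that rose were DCN, from 531 ± 37.4 to 667 ± 12.5 FPKM, and PDGFRA, from 36.9 ± 2.05 to 44.3 ± 0.568 FPKM (SD, n = 3). TCF21 fell, from 2.15 ± 0.123 to 1.68 ± 0.188 FPKM (SD, n = 3). The summed levels of adipocyte markers (1.21 to 1.36 FPKM in GM and 1.94 to 2.66 FPKM in DM), endothelial markers (0.26 to 0.519 FPKM over both groups) and macrophage and blood markers (0.869 to 1.94 FPKM over both groups) were low. Values were present for only 3 of 4 endothelial and 2 of 4 macrophage and blood markers. KDR, PTPRC and ITGAM had none, so these sums do not cover them.

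The readers' own transcripts carried m6A peaks in most cases. In GM 8 of the 10 readers had at least 1 peak, and in DM 9 of 10. Among the 12302 genes that passed the expression filter (mean input level of 0.5 FPKM or more), 70.9% had a peak in GM and 78.7% in DM, and among those with a mean of at least 5 FPKM, as all readers had, the shares were 72.1% and 80.7%. The share of readers with a peak was therefore near that of other genes. A peak is described by its fold enrichment, the ratio of IP over input reads, and by a p-value given as its log10. The reader peaks had a median fold enrichment of 3.59 in GM and 3.85 in DM, beside 3.27 and 3.38 over all peaks of the same lists. The exonic length of reader peaks had a median of 450 nt in GM and 579.5 nt in DM, beside 352 nt and 421 nt over all peaks. A peak list has 1 value per peak and group, so no replicate error belongs to any fold enrichment below.

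**Figure D1:**
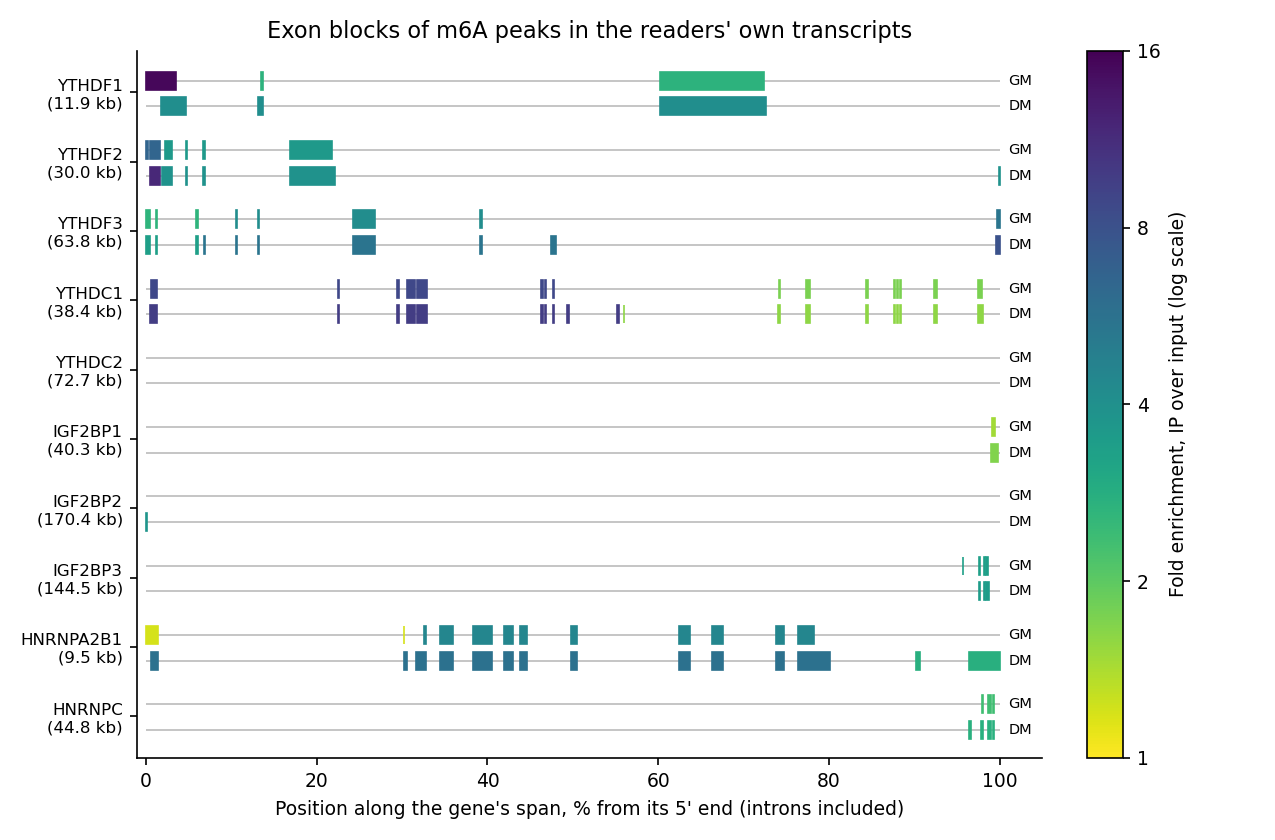
Map of the exon blocks of m6A peaks along the 10 reader genes, in percent of each gene's span from its 5′ end with introns included, GM above DM for each gene and colour giving fold enrichment of IP over input on a log scale. Blocks are drawn with a thin outline that slightly widens the smallest. YTHDF1, YTHDF2 and YTHDF3 each show a long block in both groups, IGF2BP1, IGF2BP3 and HNRNPC carry blocks only near the 3′ end, YTHDC2 carries none, and IGF2BP2 carries 1 block in DM at its 5′ end.

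As the map of exon blocks shows, the readers differed in where m6A was found, also within the IGF2BP family. At least 3 peaks were found in 2 of 8 readers in GM (YTHDF2 and YTHDF3) and in 1 of 9 in DM (YTHDF3), beside 21.0% and 17.9% of all genes with a peak. The YTHDF transcripts had peaks within 500 nt of the 5′ end and a long internal block, YTHDC1 had a strongly enriched 5′ part, the IGF2BP transcripts had at most 1 peak, and the main HNRNPA2B1 peak ran over 10 exon blocks in GM and 12 in DM. The annotation of the lists assigned 9 of 15 reader peaks in GM and 8 of 14 in DM to the 5′UTR, 4 and 5 to the 3′UTR, and 2 and 1 to an exon. Over all peaks the shares in GM and DM were 16.1% and 18.2% for the 5′UTR, 42.6% and 45.3% for the 3′UTR, and 41.3% and 36.5% for exons. A peak that spans several exons has 1 annotation, so a peak labelled 5′UTR may lie mostly downstream of it. Measured from coordinates, 5 of 8 readers in GM and 6 of 9 in DM had a peak within 500 nt of the 5′ end of the gene, beside 33.9% and 37.9% of tested genes with a peak. These were the YTHDF genes, YTHDC1 and HNRNPA2B1, and in DM also IGF2BP2. The antibody also binds m6Am, a modified adenosine next to the cap, and its part in these 5′ peaks was not tested.

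YTHDF1 (ENSBTAG00000010383, chr13:54332554-54344491, plus strand, ARS-UCD1.2 as for all positions here) carried the reader peak with the highest fold enrichment. In GM the first peak began at the annotated 5′ end (chr13:54332554-54332972, 419 nt) with a fold enrichment of 15.2 and a log10 p of -8.26, and 97.1% of GM peaks had a lower fold enrichment. The second GM peak covered 1492 exonic nt at chr13:54334159-54341194, with a fold enrichment of 2.69 and a log10 p of -52.3. In DM a single peak of 1910 nt at chr13:54332763-54341224 had a fold enrichment of 4.13. It overlapped both GM peaks, by 210 nt of the first and the whole of the second. The first 209 nt of the gene, which were inside a peak in GM, were outside the DM peak. Because 1 DM value stands for what GM reports as 2 peaks, the 5′ peak of YTHDF1 has no matched value in DM. The length-weighted fold enrichment, the mean over a gene's peaks weighted by exonic length, was 5.43 in GM and 4.13 in DM for YTHDF1.

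YTHDF2 (ENSBTAG00000015771, chr2:124710421-124740398, minus strand), which recruits the deadenylase that removes poly(A) tails, had 3 peaks in GM and 2 in DM. In GM the 90 nt peak at the 5′ end (chr2:124740309-124740398) and the 329 nt peak beside it (chr2:124739921-124740249) both had a fold enrichment of 6.53, with log10 p of -1.38 and -2.41. They were the weakest calls in the gene, and the false discovery rate of the first had a log10 of only -0.711. The counterpart in DM, chr2:124739891-124740249, covered 359 nt with a fold enrichment of 11.7 and a log10 p of -5.56, and the 90 nt GM peak had no overlapping DM peak. The main peak of YTHDF2 was longer and far better supported. It covered 1850 nt with a fold enrichment of 3.59 and a log10 p of -222 in GM, and 2058 nt with 3.91 and -253 in DM. The DM peak reached further towards the 3′ end of the gene through an added block.

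YTHDF3 (ENSBTAG00000018557, chr14:28141155-28204989, plus strand) had 3 peaks in each group, and each had a higher fold enrichment in DM. The 5′ peak covered the same 450 nt in both groups (chr14:28141155-28145079) with a fold enrichment of 2.65 in GM and 3.37 in DM. The middle peak covered 1828 nt in GM and 2337 nt in DM, with 4.15 and 5.53. The peak at the 3′ end covered 181 nt in GM and 271 nt in DM, with 5.44 and 7.99, but was weakly supported, with log10 p of -1.87 and -3.11. The 3 YTHDF genes thus shared an arrangement: in each group their largest peak held an uninterrupted exon block of at least 1400 nt. That block measured 1454 nt in GM and 1484 nt in DM for YTHDF1, 1492 nt and 1587 nt for YTHDF2, and 1599 nt in both for YTHDF3. Only 3.28% of all GM peaks and 5.13% of all DM peaks had a block that long, and no peak of another reader did. The cut of 1400 nt lies just below the shortest YTHDF block, so these shares describe the blocks and are no test of them. Most of the coding sequence of YTHDF genes is known to lie in a single long exon, but which exon these blocks belong to was not examined.

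YTHDC1 (ENSBTAG00000015572, chr6:84101528-84139895, plus strand), the nuclear reader, had a contrast between its 5′ and 3′ parts. The 5′ peak ran over 8 exon blocks and 1349 nt in GM (chr6:84101738-84119862) with a fold enrichment of 8.80 and a log10 p of -944, and over 10 blocks and 1588 nt in DM (chr6:84101708-84122771) with 9.73 and -1010. In GM 90.4% of peaks had a lower fold enrichment, and in DM 91.6%. Peaks of 8 or more exon blocks made up 2.33% of the GM list and 3.3% of the DM list, and the readers had 3 in each, both of YTHDC1 and the main one of HNRNPA2B1. The cut of 8 equals the block number of both YTHDC1 peaks in GM, so these shares are a description and no test. The 3′ peak covered 780 nt in GM and 870 nt in DM with fold enrichments of 1.75 and 1.60. It was the only reader pair with a lower value in DM. YTHDC2 (ENSBTAG00000014099, chr10:2413343-2486039, plus strand) had no peak in either list, the only reader without one in both. It was also the reader with the lowest transcript level, 6.61 ± 0.538 FPKM in GM and 5.21 ± 0.145 FPKM in DM (SD, n = 3). Among all tested genes that level was not low, since 40.7% had a lower mean over the inputs. What the level of YTHDC2 allows peak calling to find was not tested.

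The 3 IGF2BP genes had 2 peaks in GM and 3 in DM. IGF2BP1 (ENSBTAG00000011736, chr19:37503490-37543759, minus strand) had 1 peak close to its 3′ end, 150 nt with a fold enrichment of 1.47 in GM and 329 nt with 1.70 in DM. Only 5.88% of GM peaks and 15.6% of DM peaks had a lower fold enrichment. IGF2BP3 (ENSBTAG00000019406, chr4:31943617-32088119, minus strand) had 1 peak too, 1909 nt from the 3′ end in GM and 1819 nt in DM, of 627 nt in GM and 687 nt in DM, with fold enrichments of 3.40 and 3.49, both close to the list medians. It was the only paired reader peak whose GM extent was not wholly inside the DM peak, with 597 nt shared. IGF2BP2 (ENSBTAG00000007666, chr1:81402025-81572413, plus strand), the best expressed of the family, had no peak in GM and 1 peak of 90 nt in DM (chr1:81402055-81402144), 30 nt from the 5′ end of the gene, with a fold enrichment of 3.78 and a log10 p of -4.75. Only 4.53% of DM peaks were shorter, and the absence of a GM entry gives no upper limit, since the lists hold only what passed the caller.

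HNRNPA2B1 (ENSBTAG00000005726, chr4:69735135-69744610, plus strand) had the best supported peak of all readers. In GM a peak of 10 exon blocks and 1127 nt (chr4:69738219-69742547) had a fold enrichment of 4.5 and a log10 p of -6350, and 99.9% of GM peaks had weaker support. Support grows with read number as well as with enrichment, and HNRNPA2B1 was the most abundant reader. A second GM peak of 149 nt from the 5′ end had a fold enrichment of only 1.2, lower than all but 0.415% of GM peaks. In DM a single peak of 12 blocks and 1513 nt (chr4:69735194-69742725) overlapped both, with a fold enrichment of 5.69 and a log10 p of -5740. DM also had a peak of 386 nt at the 3′ end of HNRNPA2B1 with a fold enrichment of 2.79, which had no counterpart in GM. HNRNPC (ENSBTAG00000011396, chr10:25880971-25925727, plus strand) had 1 peak near its 3′ end, over 266 nt in GM and 472 nt in DM, with fold enrichments of 2.33 and 2.75. The lists annotate it to exon 7 of 9 in GM and exon 6 of 9 in DM.

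**Figure D2:**
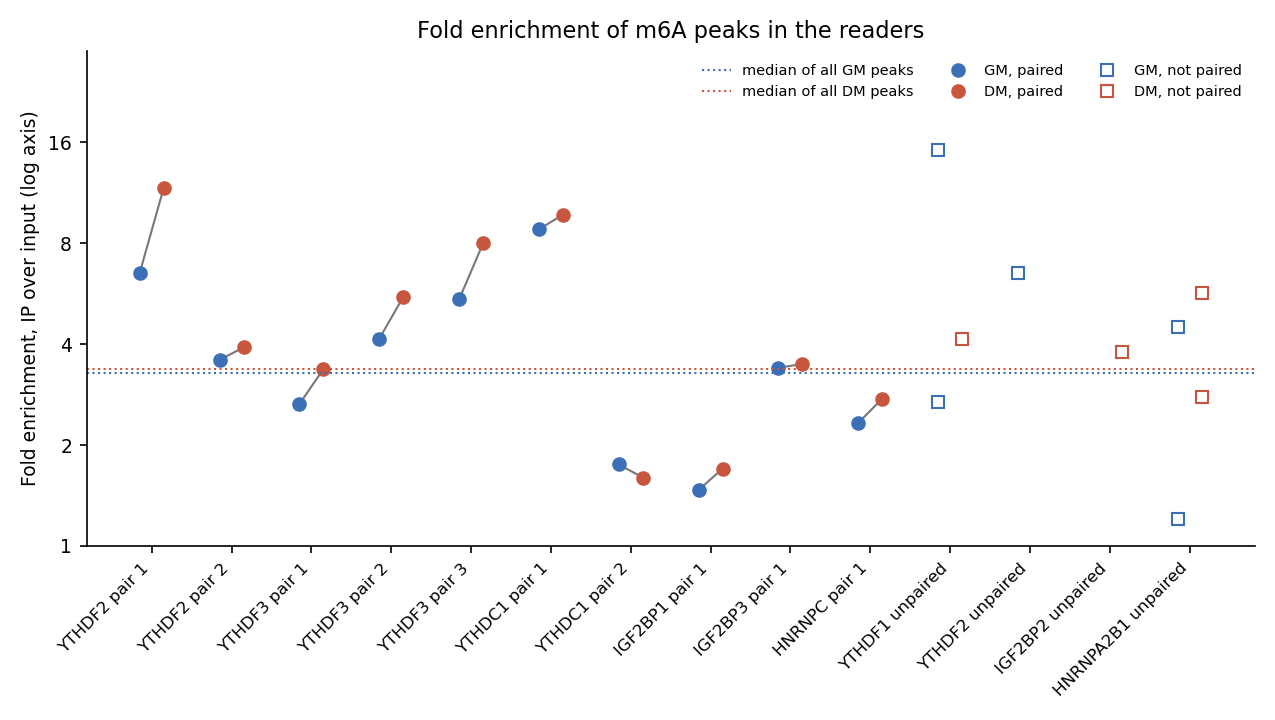
Fold enrichment of IP over input of each reader peak on a log axis, GM in blue and DM in red, with lines joining the 10 one-to-one pairs, open squares for peaks without such a partner, and dotted lines at the medians of all peaks (3.27 in GM and 3.38 in DM). All pairs rise to the right except the second YTHDC1 pair, and the steepest is the first YTHDF2 pair, from 6.53 to 11.7.

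To compare m6A between the groups, peaks were paired where a single GM and a single DM peak overlapped each other and no other peak by at least 1 base of exon, which gave 10 reader pairs among 10239. Of the reader peaks, 14 of 15 in GM overlapped a DM peak and 12 of 14 in DM overlapped a GM peak, beside 85.3% and 71.3% of all peaks. The plot of fold enrichment by pair shows a higher value in DM in 9 of the 10, beside 56.5% of all pairs. The median log2 ratio of DM over GM was 0.22 for the reader pairs and 0.07 for all pairs, and 8 of the 10 reader pairs lay above the median of all pairs. These pairs come from 6 genes, 3 of them from YTHDF3, and are not independent. The differences were small in size: 1 of 10 reader pairs passed a ratio of 1.5 in either direction, beside 25.0% of all pairs (14.2% higher and 10.8% lower in DM). That pair was the 5′ pair of YTHDF2, with 6.53 in GM and 11.7 in DM, a ratio of 1.79 and a log2 ratio of 0.84, and it was also the most weakly supported in GM except for the 3′ pair of YTHDF3. With a false discovery rate under 0.001 required in both lists neither of these pairs remained and the count was 0. The 3′ pair of YTHDF3 came next with a ratio of 1.47, followed by its middle pair with 1.33 and its 5′ pair with 1.27. The ratios of the other pairs were 1.18 for HNRNPC, 1.16 for IGF2BP1, 1.11 for the 5′ pair of YTHDC1, 1.09 for the main pair of YTHDF2, 1.03 for IGF2BP3 and 0.914 for the 3′ pair of YTHDC1.

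**Figure D3:**
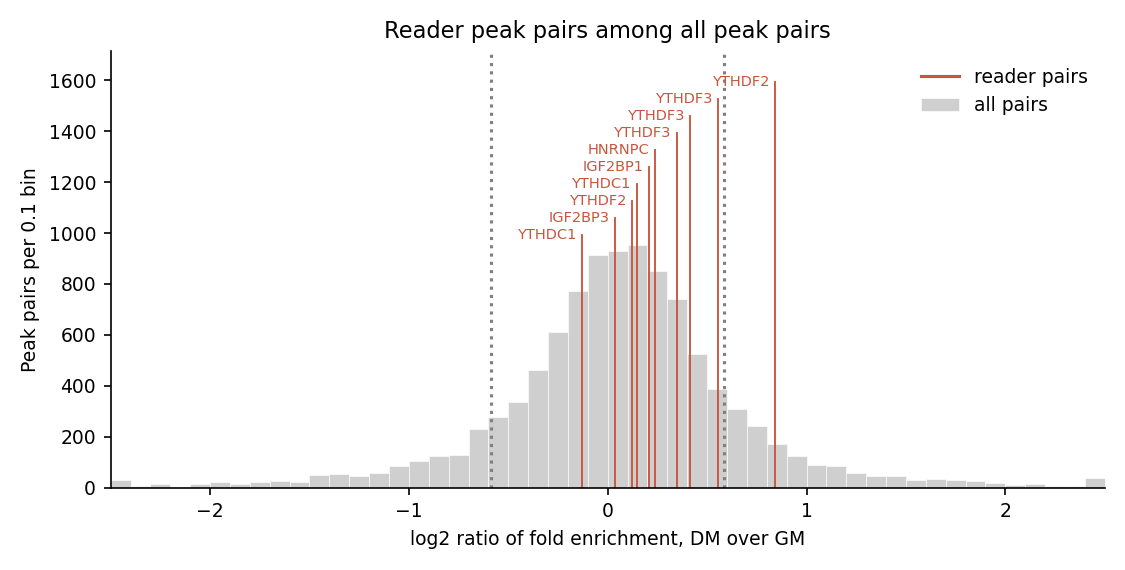
Histogram of the log2 ratio of fold enrichment, DM over GM, for all 10239 peak pairs in bins of 0.1 (grey), with the 10 reader pairs as red lines whose height only separates the labels, and dotted lines at a ratio of 1.5 in either direction. Ratios beyond the axis are gathered in the end bins. The reader pairs lie within the bulk of the distribution, 9 of them above 0 and 1, YTHDF2 at 0.84, beyond the dotted line.

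The histogram of ratios places the reader pairs between the 31.9 percentile of all pairs, for the 3′ pair of YTHDC1, and the 92.4 percentile, for the 5′ pair of YTHDF2. The 2 lists were called separately, and DM peaks were longer in general. The exonic length under peaks was greater in DM for 8 readers, counting IGF2BP2 with no peak in GM, and YTHDF1 differed by 1 nt in the other direction (1911 nt in GM and 1910 nt in DM), while 74.5% of the tested genes with peaks in both lists had longer cover in DM. Summed over the readers the cover was 11087 nt in GM and 13320 nt in DM. The length-weighted fold enrichment, which needs no pairing, was higher in DM in 7 of the 8 readers with peaks in both lists, beside 59.8% of such genes. It went from 4.13 to 5.07 in YTHDF2, from 3.97 to 5.43 in YTHDF3, from 6.22 to 6.85 in YTHDC1 and from 4.11 to 5.10 in HNRNPA2B1, and only YTHDF1 was lower. For YTHDF1 the direction depended on the rule. When peaks overlapping by at least 50% of both were paired, its second GM peak was set beside the DM peak and the ratio was 1.54, and when the highest fold enrichment of each overlapping group was taken, the values were 15.2 and 4.13, a log2 ratio of -1.88.

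**Figure D4:**
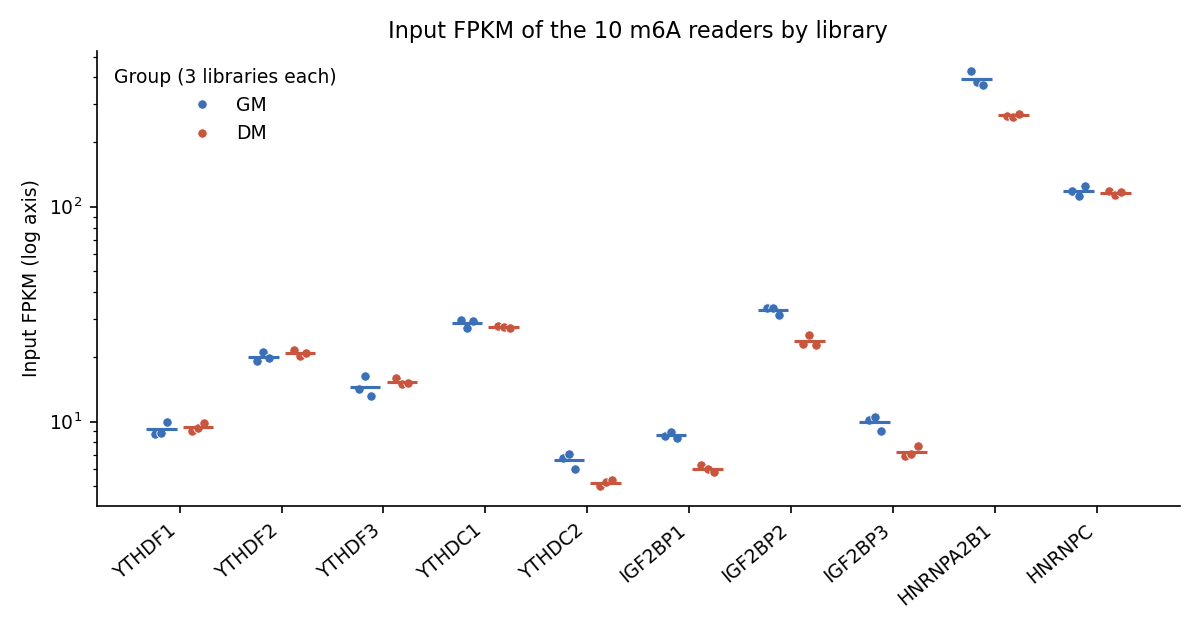
Input FPKM of the 10 readers on a log axis, with 1 point per library (3 GM in blue, 3 DM in red) and horizontal bars at the group means. The points of GM and DM separate for YTHDC2, IGF2BP1, IGF2BP2, IGF2BP3 and HNRNPA2B1 and overlap for the other 5.

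The plot of FPKM by library shows which transcript levels differed between the groups. All 3 IGF2BP genes, HNRNPA2B1 and YTHDC2 fell from GM to DM, and no reader rose. At an adjusted p under 0.05 (limma), 5 of 10 readers were lower and 0 higher, beside 26.7% of tested genes lower, 16.1% higher and 42.8% in either direction. The same 5 readers had GM and DM values that did not overlap, as did 54.1% of tested genes. By an unadjusted p under 0.05 together with a fold change over 1.5, a rule that took 11.9% of tested genes, 0 readers passed, while 5 passed the unadjusted p alone. The falls were thus modest in size, and without the third GM input library HNRNPA2B1 alone passed that rule, with a log2 fold change of -0.60. The median log2 fold change was -0.18 over the readers and -0.05 over all tested genes. These are bulk cultures, in which fewer cells of a type and less RNA per cell cannot be told apart, and the part of the fall in proliferation markers in these differences was not tested.

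HNRNPA2B1 had the highest level and the largest change of the readers. Its values were 426, 381 and 369 FPKM in GM and 265.6, 262.8 and 269.4 FPKM in DM. Every GM library was above every DM library, and the DM libraries were close to each other. The mean was 392 ± 30.1 FPKM in GM and 265.9 ± 3.33 FPKM in DM (SD, n = 3), a log2 fold change of -0.56 with a standard error of 0.062 and an adjusted p of 0.000202 (limma). The 3 tested genes nearest to HNRNPA2B1 in pattern over the 6 inputs, by the root mean square difference of centred log2(FPKM + 1), were TOR2A at 0.0265, SNRPA1 at 0.0336 and COX7A2L at 0.0344, where the median over all tested genes was 0.284. HNRNPC differed from it. Its values were 117.8, 112.7 and 124.3 FPKM in GM and 118.0, 113.0 and 117.6 FPKM in DM, and the groups overlapped. Its log2 fold change was -0.02 (95% interval -0.14 to 0.10) with an adjusted p of 0.748 (limma).

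The IGF2BP genes fell by like amounts. IGF2BP2, the most abundant, had 33.8, 33.9 and 31.4 FPKM in GM and 23.0, 25.2 and 22.7 FPKM in DM. IGF2BP1 had 8.56, 8.92 and 8.41 FPKM in GM and 6.27, 6.02 and 5.85 FPKM in DM. IGF2BP3 had 10.2, 10.5 and 9.09 FPKM in GM and 6.91, 7.06 and 7.68 FPKM in DM. In each of the 3 genes all GM libraries lay above all DM libraries. The log2 fold change of IGF2BP1 was -0.45 with a standard error of 0.057 and an adjusted p of 0.000418 (limma). That of IGF2BP2 was -0.47 with a standard error of 0.060 and an adjusted p of 0.000454 (limma), and that of IGF2BP3 was -0.41 with a standard error of 0.071 and an adjusted p of 0.00218 (limma). Summed over the family, the level was 51.6 ± 2.39 FPKM in GM and 36.9 ± 1.22 FPKM in DM (SD, n = 3), with an exact two-sided permutation p of 0.1, the smallest that 3 against 3 libraries allow. The balance within the family was nearly constant. IGF2BP2 made up 64.0 ± 0.408% of the sum in GM and 64.0 ± 1.65% in DM, IGF2BP3 19.2 ± 0.583% and 19.6 ± 1.44%, and IGF2BP1 16.7 ± 0.460% and 16.4 ± 0.849% (SD, n = 3).

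Of the YTH domain readers, only YTHDC2 passed the test. Its values were 6.76, 7.06 and 6.01 FPKM in GM and 5.04, 5.25 and 5.32 FPKM in DM, with a log2 fold change of -0.29, a standard error of 0.070 and an adjusted p of 0.0102 (limma). The groups did not overlap, but the call was lost when FPKM were rescaled to the same total in every library (log2 fold change -0.20, adjusted p 0.0976, limma). YTHDF1 ranged from 8.79 to 9.98 FPKM in GM and from 9.0 to 9.89 in DM, YTHDF2 from 19.1 to 21.1 and from 20.2 to 21.7, and YTHDF3 from 13.1 to 16.2 and from 14.9 to 15.9. YTHDC1 ranged from 27.4 to 29.9 FPKM in GM and from 27.2 to 27.9 in DM. All of these ranges overlapped between the groups. The log2 fold changes were 0.03 for YTHDF1 (95% interval -0.13 to 0.18), 0.06 for YTHDF2 (-0.07 to 0.19), 0.08 for YTHDF3 (-0.10 to 0.26) and -0.07 for YTHDC1 (-0.19 to 0.05). The intervals leave out a change of 1.5-fold in either direction for these 4 genes. The YTHDF genes summed to 43.7 ± 2.13 FPKM in GM and 45.7 ± 1.06 FPKM in DM (SD, n = 3, exact two-sided permutation p 0.3). YTHDF2 made up 45.7 ± 0.455% of that sum in GM and 45.8 ± 0.568% in DM, YTHDF3 33.2 ± 2.37% and 33.6 ± 0.623%, and YTHDF1 21.1 ± 2.04% and 20.6 ± 1.15%.

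**Figure D5:**
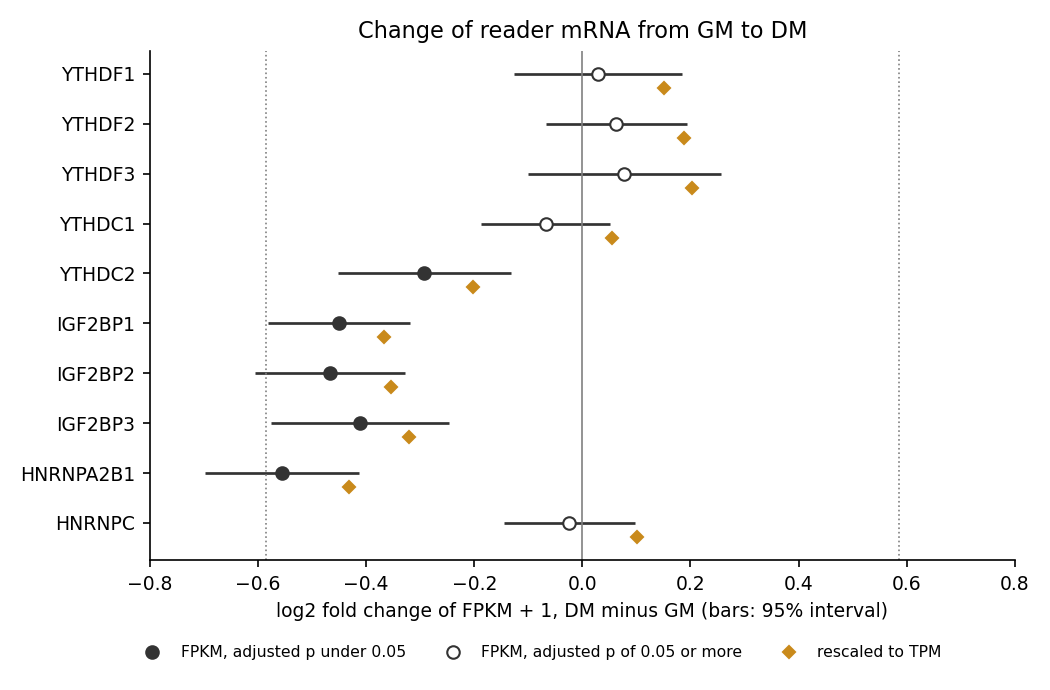
Log2 fold change of each reader, DM minus GM, on log2(FPKM + 1), with 95% intervals from limma; filled circles have an adjusted p under 0.05, diamonds give the value after rescaling to TPM, and dotted lines mark a change of 1.5-fold. The 5 filled circles lie between -0.56 (HNRNPA2B1) and -0.29 (YTHDC2), and the diamonds lie to the right of the circles for all 10 readers.

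The scale of the table bears on these directions. FPKM summed to 415740.2 to 434458.3 per GM library and to 386436.5 to 390826.9 per DM library, and rescaling each library to the same total (TPM) moved the median change over all genes by 0.108 on the log2 scale, from -0.05 to 0.06. It also raised all values against the fixed filter and pseudocount, so that 13494 genes were tested. The share of higher genes among those called was 37.6% on FPKM, 49.0% with median-of-ratios size factors and 59.2% on TPM. In the plot of log2 fold changes, the estimates for IGF2BP1, IGF2BP2, IGF2BP3 and HNRNPA2B1 stay below 0 on both scales, inside the lines of 1.5-fold. For these genes the adjusted p was under 0.05 (limma) on both scales. YTHDC1 and HNRNPC, which did not pass on either, change sign on TPM. The YTHDF genes move up on TPM, to log2 fold changes of 0.15 for YTHDF1, 0.19 for YTHDF2 and 0.20 for YTHDF3. Their adjusted p there was 0.119, 0.0518 and 0.119 (limma), so YTHDF2 came close to the threshold for a rise.

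Within GM the readers ranked in FPKM from HNRNPA2B1 and HNRNPC through IGF2BP2, YTHDC1, YTHDF2 and YTHDF3 to IGF2BP3, YTHDF1, IGF2BP1 and YTHDC2. The library ranges of neighbours overlapped only between IGF2BP3 and YTHDF1 and between YTHDF1 and IGF2BP1. In DM no neighbours overlapped, and YTHDC1 stood above IGF2BP2 and YTHDF1 above IGF2BP3. Readers of like level differed in their peaks, since in GM YTHDC1 at 28.9 FPKM had a peak of 8.80-fold enrichment whereas IGF2BP2 at 33.0 FPKM had none. With 1 peak list per group, no relation between the change in level and the change in m6A was tested.

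The other genes of the m6A pathway were counted in the same way. Of 9 writer components tested, 1 fell (VIRMA, a scaffold of the complex, 14.9 ± 0.564 FPKM in GM and 12.7 ± 0.191 FPKM in DM, SD, n = 3, limma adjusted p 0.0122) and 8 did not pass, and neither eraser passed, beside 26.7% lower and 16.1% higher over all tested genes. All 9 writers had a peak in both groups, and 8 of their 9 peak pairs were higher in DM, beside 56.5% of all pairs. Of the 9 pairs 1 passed a ratio of 1.5, that of METTL14, and only just, at 1.509 (fold enrichment 3.32 in GM and 5.01 in DM). Over all pairs 14.2% passed 1.5-fold upwards and 10.8% downwards. Of 9 further proposed readers, 2 rose, 5 fell and 2 did not pass, beside the same shares over all genes. The largest change was that of HNRNPD, an AU-rich element binding protein, from 149.7 ± 4.93 to 97.4 ± 0.531 FPKM (SD, n = 3, limma adjusted p 2.2e-05), followed by EIF3B and G3BP1 with log2 fold changes of -0.39 and -0.31. In this list 4 of 9 peak pairs were higher in DM, again beside 56.5%. FXR2 passed the 1.5-fold ratio upwards in its 3′UTR (5.55 and 8.88) and PRRC2A downwards (5.04 and 2.84), 1 pair each way beside 14.2% and 10.8% of all pairs. The other pair of FXR2 (4.29 and 4.27) and that of PRRC2A (4.51 and 5.36) did not pass. Of 9 known partners of the readers that were tested, 1 rose, 5 fell and 3 did not pass, beside 16.1% higher and 26.7% lower over all tested genes. Those with the largest falls were PABPC1, the poly(A) binding protein, from 396.6 ± 39.9 to 269.4 ± 8.20 FPKM, SRSF3, a splicing factor that works with YTHDC1, from 164.5 ± 4.99 to 117.0 ± 7.96 FPKM, and RIDA, an endonuclease adaptor of YTHDF2, from 25.1 ± 2.5 to 18.9 ± 1.82 FPKM (SD, n = 3). The median log2 fold change was -0.08 for the writers, -0.21 for the further readers and -0.32 for the partners.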

How the data were processed

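According to the study's methods, poly(A) RNA was fragmented to about 100 nt, part was immunoprecipitated with an m6A antibody, and the authors mapped strand-specific libraries to ARS-UCD1.2 (HISAT2). Expression was deposited as StringTie FPKM of the inputs, without counts, so read depth per gene is unknown and precision comes from the spread of 3 libraries. For peaks the paper names MACS2 for each sample, exomePeak for GM and DM as conditions, and ChIPseeker for annotation. It does not say that libraries were pooled. Each deposited list is taken to be the exomePeak result and to pool the libraries of its group. The deposited fold enrichment is a linear ratio of IP over input. The score deposited for each peak is the authors' unadjusted p-value, and further deposited columns hold the log10 of it and of its false discovery rate. Whether strand was used in counting and calling, and tool versions, are not given in the sources used here.

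The count-based test of the study could not be run on FPKM. Expression was tested with limma 3.58.1 (R 4.3.3), using log2(FPKM + 1) and a variance trend, over the 12302 genes whose mean reached 0.5 FPKM, and p-values were adjusted (Benjamini-Hochberg) over all of them. Fold changes on this scale understate the change of low genes. Peaks were paired in Python 3.11.15 with pandas 2.3.3 by overlap of exon blocks on the same strand, and positions are 1-based. The readers are all named. Of the pathway lists, the members past the test with the 3 largest changes and those with a pair past 1.5-fold are named. The marker lists are given as counts and sums, with ACTA1, MYOG, MYH3, COL1A1, DCN, PDGFRA and TCF21 named after their values were seen. Markers without a value are named too. The members and lists were chosen with earlier results of these data known. The scripts were tested on simulated data.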

Additional observations from a re-analysis of the deposited data

How the results depend on the processing

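Of 13 alternatives to the expression fit, 12 kept the 5 reader calls, and TPM lost YTHDC2. The count of readers past an unadjusted p under 0.05 and a fold over 1.5 was 0 to 1 when each library was left out in turn, the 1 being HNRNPA2B1 without the third GM input, and all genes called numbered 4139 to 5428. The 1 reader pair past 1.5-fold became 2 when 50% of both peaks had to overlap and 2 with overlapping groups, in both cases with YTHDF1 added, but 0 at a false discovery rate under 0.001 and 0 at a ratio over 2. Centring the ratios on all pairs moved each reader value by the same 0.07 and took IGF2BP3 to -0.04. With the replicate number as a block, 5 readers and 4513 genes were called, beside 5 and 5268 without it. Deviations of same-numbered GM and DM libraries correlated at -0.0792, -0.124 and -0.208, so the numbers were not taken to pair them. Other results stayed on the same side of their threshold or within 1.5 times. Without counts and with 1 peak list per group, no peak difference has an error.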

Other observations

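Messages known from other systems to be bound by IGF2BP proteins were listed beside the readers. Of 8 tested, 5 fell, 1 rose and 2 did not pass (limma adjusted p under 0.05), beside 26.7% lower and 16.1% higher over all tested genes. HMGA2, a chromatin protein of proliferating progenitors, went from 2.80 ± 0.621 to 0.538 ± 0.161 FPKM, CD44, a hyaluronan receptor, from 97.6 ± 3.0 to 46.6 ± 2.10 FPKM, and ACTB, cytoplasmic actin, from 2672 ± 82.3 to 1676 ± 16.8 FPKM (SD, n = 3). LAMB2, a laminin subunit, rose from 29.8 ± 0.628 to 36.7 ± 0.483 FPKM. The median log2 fold change was -0.49. Of their 6 peak pairs 4 were higher in DM, beside 56.5% of all pairs, and the LAMB2 pair had fold enrichments of 14.6 in GM and 7.74 in DM, a ratio of 0.530. It was the only 1 of the 6 past 1.5-fold, beside 14.2% of all pairs upwards and 10.8% downwards. The fall in proliferation markers went with these values, and its part in them was not tested.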
